A study of Homo sapiens with 20 samples.

Results

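DND41 is an established human line of acute lymphoblastic leukaemia of T cell origin (T-ALL), and its response to the NEMO-binding domain (NBD) peptide is described here from the 4 arrays of that line among the 20 of the series. The 4 were chosen by their titles and are DND41 cells given a control peptide (2 arrays) and DND41 cells given the NBD peptide (2 arrays), both for 16 h. The other 16 arrays hold CEM, HPB-ALL, KOPT-K and T-ALL1 cells under the same 2 peptides, 2 arrays per line and peptide, and serve here as a comparison and for the estimate of the spread. The peptide dose is given as 100 µM in some labels and 100 mM in others, so nothing below rests on it. The labels describe the control only as a control peptide, without its sequence, and leave unstated whether replicate arrays stem from independent cultures. The p-values therefore measure the spread between arrays, which may be technical, and a single established line stands for no other.

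NEMO, also called IKKγ, is the regulatory subunit of the IκB kinase, and the NBD peptide is designed to part it from the catalytic subunits IKKα and IKKβ. In the canonical NF-κB pathway this kinase marks the inhibitor IκBα for destruction by the proteasome, which frees NF-κB dimers to enter the nucleus, where they also induce the genes of their own inhibitors. T-ALL cells commonly depend on active Notch signalling, which drives HES1, DTX1 and MYC, and NF-κB has been described as one of the pathways downstream of Notch in this leukaemia. The comparison asks which transcripts differed in DND41 after the peptide designed against this kinase, whose activity was not measured here.

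The 4 arrays were alike. They correlated with each other at r = 0.994 to 0.997 across 13787 genes, each matched its own group best, and no array of another line came above 0.923. Mean intensities were 341 to 346 and medians 30.51 to 30.94. Precision is limited here by there being 2 arrays a group. Signal of the 3' actin probe set over the 5' one, a log2 difference that grows as RNA breaks down, was 1.46 and 1.38 on the control arrays and 1.32 and 1.21 on the NBD arrays, which did not overlap, while that of GAPDH did (0.31 and 0.36 against 0.39 and 0.33). With the actin difference as a covariate limma called 207 genes higher and 361 lower, all of those called without it included; its part in the results was not tested further. Of 17 T cell markers, 15 lay above the filter level, a log2 intensity of 5, on all 4 arrays, and CD2 and CD5 did not. Of 9 B cell markers on the array, CD79A, EBF1, BLK, CD22 and CD79B lay above it and MS4A1, PAX5, BLNK and VPREB1 below. Of 9 myeloid markers 1 lay above it, as did 1 of 10 fibroblast and epithelial and 1 of 4 erythroid markers.

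With the NBD peptide, 101 genes rose and 240 fell in DND41 (limma, Benjamini-Hochberg adjusted p under 0.05). That is 0.733% and 1.74% of the 13787 genes tested, 2.47% in either direction. Of these, 25 rose and 69 fell past 1.5-fold, and 2 and 14 past 2-fold. In all 341 the 2 NBD arrays lay on one side of the 2 control arrays. That alone is common, since 21.6% of all genes had both NBD arrays above both controls and 27.8% had both below. Where it is described for a called gene below, it adds no support to the call. Genes that rose had a median log2 level of 8.86 and genes that fell one of 9.34, against 7.78 over all genes. The median change over all genes was -0.017. The calls rest on the spread shared by the 10 groups of the series: from the 4 DND41 arrays alone limma called 0 genes higher and 3 lower, while 2131 had an unadjusted p under 0.05. They also rest on single arrays, since 13 rose and 35 fell without control 1, 23 and 71 without control 2, 97 and 172 without NBD 1 and 20 and 40 without NBD 2, each time with a lone array assumed to vary like the other groups. Among 90 called genes named by the rule, 24 were called in all 4 of these fits and 30 in none.

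**Figure D1:**
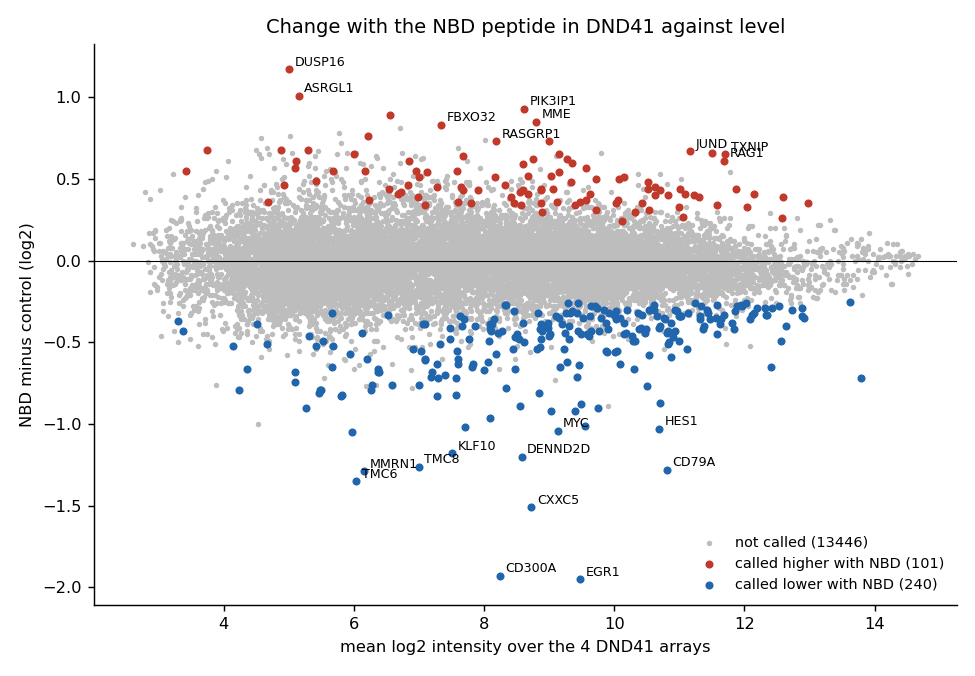
Each point is 1 of 13787 genes, by its mean log2 intensity over the 4 DND41 arrays (horizontal) and its NBD minus control difference on the log2 scale (vertical). Red points are the 101 genes called higher and blue points the 240 called lower. The falls reach further than the rises, to -1.95 for EGR1 and -1.93 for CD300A against 1.17 for DUSP16.

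EGR1, a zinc finger transcription factor of the immediate-early class, fell most. Its log2 intensity was 10.48 and 10.42 with the control peptide and 8.56 and 8.43 with NBD. Both NBD arrays lay far below both controls, a change of -1.95 ± 0.18 on the log2 scale (SE of the fit, n = 2 per group, 3.87-fold lower; limma adjusted p = 0.00013). CD300A, an inhibitory receptor of leukocytes, read 9.23 and 9.19 with control and 7.36 and 7.19 with NBD. The groups were again well apart, at -1.93 ± 0.12 (3.81-fold lower; limma adjusted p = 3.49e-06). CXXC5, a CXXC zinc finger protein that restrains Wnt signalling, read 9.53 and 9.43 with control and 7.98 and 7.97 with NBD. Its change of -1.51 ± 0.08 (2.84-fold lower) had the lowest p of these (limma adjusted p = 5.6e-07). Other probe sets of all 3 genes were called lower too, at -1.58 and -2.06 for EGR1, -1.70 for CD300A and -1.27 and -1.56 for CXXC5. A dim probe set of CD300A, at a mean log2 level of 4.06, gave 0.41.

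Further falls of over 2-fold were seen in genes of several functions. TMC6 and TMC8, which encode membrane channel-like proteins of the endoplasmic reticulum, changed by -1.35 ± 0.12 and -1.26 ± 0.21 (limma adjusted p = 8.18e-05 and 0.00642). TMC6 read 6.88 and 6.55 with control and 5.35 and 5.37 with NBD, and TMC8 read 7.72 and 7.55 against 6.13 and 6.6. In both genes the control arrays lay above the NBD arrays. MMRN1, which encodes multimerin, a secreted adhesive protein, read 6.88 and 6.73 with control and 5.37 and 5.66 with NBD (-1.29 ± 0.10; limma adjusted p = 3.32e-05). DENND2D, a DENN domain protein, changed by -1.20 ± 0.20 and KLF10, a zinc finger repressor, by -1.18 ± 0.15. PALD1, the paladin gene, followed at -1.05 ± 0.12, ISM1, which encodes a secreted protein, at -1.02 ± 0.22, and PLXND1, a semaphorin receptor, at -1.01 ± 0.11. GALNT6, an enzyme that starts O-glycosylation, was just under 2-fold lower at -0.96 ± 0.10. Their limma adjusted p-values were, for DENND2D, KLF10, PALD1, ISM1, PLXND1 and GALNT6 in turn, 0.00783, 0.00143, 0.000503, 0.0267, 0.000554 and 0.000243. The TMC8 call was lost without control 1 (-1.18, limma adjusted p = 0.0819), that of DENND2D without control 1 or NBD 2 (up to 0.0953) and that of ISM1 in all 4 fits (0.074 to 0.245). The other probe sets of TMC6 and TMC8 gave -0.50 (limma adjusted p = 0.0577), -1.25 (0.0389) and -0.45 (0.273).

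Among the genes that rose, DUSP16, a phosphatase that inactivates the stress MAP kinases JNK and p38, had the largest value. It read 4.30 and 4.54 with control and 5.54 and 5.64 with NBD. The NBD arrays lay above the controls by 1.17 ± 0.14 (limma adjusted p = 0.000829). Its rank and size are uncertain, because the control levels are below the filter level of 5 and its other probe sets do not show it: the brightest in DND41, at a mean of 5.84, gave 0.13 (limma adjusted p = 0.713), and the others 0.24 and, on a dim one, -0.10. PIK3IP1, an inhibitor of phosphatidylinositol 3-kinase, read 8.17 and 8.14 with control and 9.02 and 9.13 with NBD, a rise of 0.93 ± 0.10 (1.90-fold; limma adjusted p = 0.000445). MME, which encodes the CD10 antigen of immature lymphocytes, read 8.34 and 8.41 against 9.21 and 9.24, a rise of 0.85 ± 0.15 (limma adjusted p = 0.00868). RASGRP1, which activates Ras downstream of the T cell receptor, read 7.85 and 7.78 against 8.52 and 8.58 (0.73 ± 0.07; limma adjusted p = 0.000243). In these 3 genes the arrays of a group lay close together and the groups did not overlap.

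ASRGL1, an asparaginase, read 4.32 and 4.98 with control and 6 and 5.33 with NBD. Its rise of 1.01 ± 0.21 (limma adjusted p = 0.0208) came with the widest spread within groups among the named rises, and its call was lost without control 1 or NBD 1 (limma adjusted p up to 0.232). The histone genes H1-6 and H2BC17 rose by 0.89 ± 0.22 and 0.68 ± 0.15, HHIP-AS1, a long non-coding RNA, by 0.73 ± 0.12, and HS6ST2, a heparan sulfate sulfotransferase, by 0.68 ± 0.15. ZNF827, a zinc finger protein gene, rose by 0.65 ± 0.14. The control levels of H2BC17, 4.51 and 4.58, are below the filter level of 5, as are those of ASRGL1. For HS6ST2 they lie around it, at 5.17 and 4.74. The SMAD1 call (0.68 ± 0.14), in a gene that carries signals of bone morphogenetic proteins, rests on log2 levels of 3.28 to 4.23, below the filter level on all 4 arrays. Calls of all these genes were lost in at least 2 of the 4 fits that leave out 1 array. H1-6, H2BC17 and SMAD1 were lost without control 1, control 2 or NBD 2 (limma adjusted p up to 0.455, 0.331 and 0.275) and HS6ST2 without control 2, NBD 1 or NBD 2 (0.279). HHIP-AS1 was lost without control 1 or NBD 2 (0.0924), MME without control 1, control 2 or NBD 2 (0.0929) and ZNF827 in all 4 fits (0.205).

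**Figure D2:**
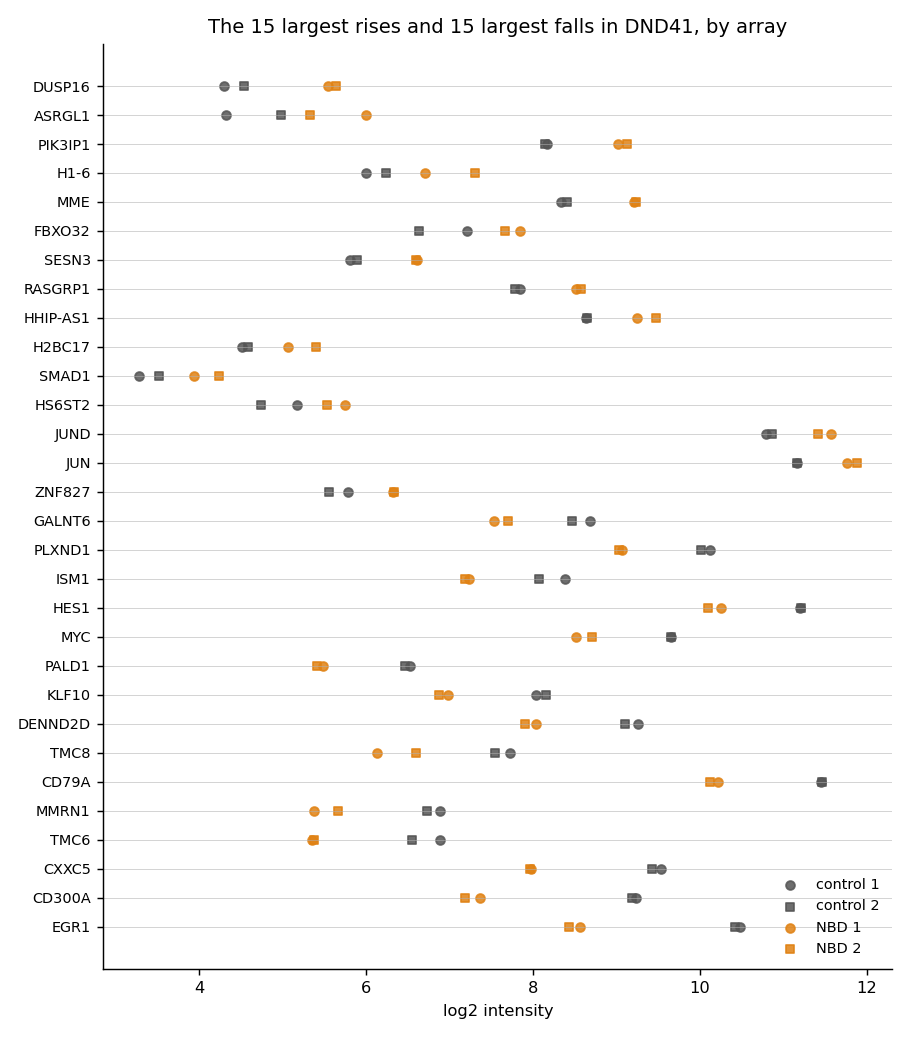
Log2 intensity (horizontal) of the 15 genes with the largest rise and the 15 with the largest fall among called genes, with grey marks for the 2 control arrays and orange marks for the 2 NBD arrays of DND41. The groups do not overlap in any of the 30 genes, which holds for all 341 called genes. The gap is widest in EGR1 (10.48 and 10.42 against 8.56 and 8.43) and CD300A.

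Genes of the NF-κB pathway, which the peptide addresses, were called in small number. NFKBIA, which encodes the inhibitor IκBα and is itself induced by NF-κB, read 9.81 and 9.84 with control and 10.31 and 10.34 with NBD. It rose by 0.50 ± 0.08 (1.42-fold; limma adjusted p = 0.00493), with both NBD arrays above both controls. TNFAIP3, which encodes the deubiquitinase A20 that shuts the pathway down, read 9.56 and 9.58 against 9.94 and 9.82. It rose by 0.31 ± 0.07 (limma adjusted p = 0.0331). CD70, a ligand of the tumour necrosis factor family, read 6.70 and 6.68 against 6.4 and 6.33 and fell by 0.33 ± 0.06 (limma adjusted p = 0.0173). These were the called members among 34 measured NF-κB targets, 2 higher (5.88%, against 0.733% of all genes) and 1 lower (2.94%, against 1.74%). The list's median change of -0.009 lay by that of all genes, -0.017.

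The kinase subunits were not called: IKBKB was 0.16 ± 0.12 (limma adjusted p = 0.603), CHUK -0.07 ± 0.10 (0.847) and IKBKG -0.08 ± 0.08 (0.704). CYLD, another deubiquitinase of the pathway, was 0.01 ± 0.10 (0.972), and its 6 other probe sets ran from -0.24 to 0.50 with none called. NFKBIA was the only one of 31 IκB kinase and NF-κB pathway genes called (3.23% higher, against 0.733% of all genes), with a list median of -0.016. The call of NFKBIA was lost without control 1 or NBD 2 (limma adjusted p up to 0.0655), that of CD70 without control 1, control 2 or NBD 2 (0.16) and that of TNFAIP3 in all 4 fits (0.0953 to 0.233). Other probe sets of NFKBIA (-0.06, at a level of 3.81) and TNFAIP3 (0.40, limma adjusted p = 0.571) were not called.

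The promoters of the inhibitor genes that rose are shown because they hold matches to the NF-κB motif close to the start of the gene. Each is the 250 bases before the start, from RefSeq (GRCh38.p14), 5′ to 3′ on the strand of the gene, with the matches in capitals. NFKBIA lies on the minus strand at chr14:35404750-35404999 and TNFAIP3 on the plus strand at chr6:137867009-137867258.
NFKBIA: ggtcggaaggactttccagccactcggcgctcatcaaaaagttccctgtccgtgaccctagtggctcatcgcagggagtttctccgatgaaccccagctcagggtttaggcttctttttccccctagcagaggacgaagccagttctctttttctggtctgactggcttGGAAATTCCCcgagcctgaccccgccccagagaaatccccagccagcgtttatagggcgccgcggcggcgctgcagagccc
TNFAIP3: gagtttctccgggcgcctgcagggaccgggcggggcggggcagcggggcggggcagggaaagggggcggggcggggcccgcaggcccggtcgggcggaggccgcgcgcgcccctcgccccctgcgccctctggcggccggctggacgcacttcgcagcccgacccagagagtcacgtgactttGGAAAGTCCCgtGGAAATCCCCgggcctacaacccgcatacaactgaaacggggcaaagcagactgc
The NF-κB motifs searched, on both strands, were GGGA or GGGG, then any 4 bases, then CC, which 22.6% and 24.1% of 35116 promoters of this length hold. Counted from the start, NFKBIA had 1 match, beginning at base -81, and TNFAIP3 had 2, beginning at -67 and -55, all read from the strand opposite to the one printed. A match is a stretch of letters and shows no binding.

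Notch pathway genes fell where they were called. HES1, the transcriptional repressor that Notch induces directly, read 11.20 and 11.21 with control and 10.25 and 10.10 with NBD, a change of -1.03 ± 0.22 (2.05-fold lower; limma adjusted p = 0.0284). DTX1, a ubiquitin ligase and Notch target, read 9.88 and 9.85 against 8.98 and 8.90 (-0.92 ± 0.18; limma adjusted p = 0.0196). The receptors NOTCH1 and NOTCH3 fell too, at -0.56 ± 0.09 and -0.63 ± 0.15 (limma adjusted p = 0.00692 and 0.041): NOTCH1 read 10.18 and 10.15 against 9.66 and 9.56, and NOTCH3 8.19 and 8.11 against 7.55 and 7.48. MYC, a growth-promoting transcription factor that Notch drives in T-ALL, read 9.65 on both control arrays and 8.52 and 8.71 with NBD (-1.04 ± 0.21; limma adjusted p = 0.0209). In each of these 5 genes both NBD arrays lay below both controls, as in every gene called lower.

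With CD3D, a CD3 chain that the list also holds, they made 6 of 39 measured Notch genes lower (15.4%, against 1.74% of all genes) and 0 higher. The list's median was -0.088 and its range -1.04 to 0.25. Another probe set of HES1 was called lower as well (-0.91; limma adjusted p = 0.0133), while others of NOTCH1 (-0.43) and NOTCH3 (0.18) were not called. The calls of HES1, DTX1, MYC and NOTCH3 were lost in all 4 fits that left out 1 array (limma adjusted p up to 0.22, 0.165, 0.142 and 0.27) and that of NOTCH1 without control 1, control 2 or NBD 2 (0.0953). The count of members lower was 1 without control 1, control 2 or NBD 2 and 2 without NBD 1.

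The HES1 promoter is shown because it carries a pair of matches to the core motif of RBPJ, the DNA-binding partner of Notch. It is the 250 bases before the start on the plus strand, at chr3:194135898-194136147 (RefSeq, GRCh38.p14), with the matches in capitals.
HES1: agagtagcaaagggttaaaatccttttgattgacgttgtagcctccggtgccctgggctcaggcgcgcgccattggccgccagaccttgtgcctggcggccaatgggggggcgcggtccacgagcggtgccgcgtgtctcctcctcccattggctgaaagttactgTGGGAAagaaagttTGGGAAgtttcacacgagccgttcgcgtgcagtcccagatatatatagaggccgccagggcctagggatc
The motif TGGGAA, searched on both strands, was found beginning at bases -84 and -70 from the start, both on the printed strand, and 20.8% of the 35116 promoters hold it.

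MYC and the machinery of growth formed the next group. Besides MYC, SRM, the spermidine synthase gene, fell by 0.65 ± 0.09 (8.15 on both control arrays, 7.59 and 7.40 with NBD; limma adjusted p = 0.00143) and LDHA, lactate dehydrogenase, was at -0.28 ± 0.06 (0.0372). MXI1, an antagonist of MYC, rose by 0.48 ± 0.09 (10.27 and 10.29 against 10.79 and 10.73; limma adjusted p = 0.017). These were the 4 called among 19 measured genes of the MYC network and its targets, 3 lower (15.8%, against 1.74% of all genes) and 1 higher (5.26%, against 0.733%). Of 55 ribosome biogenesis factors 7 fell (12.7%, against 1.74% of all genes) and 0 rose, with a median of -0.183. MRTO4 and RRP12, ribosome assembly factors, were lower at -0.67 ± 0.14 and -0.49 ± 0.11, PUS7, a pseudouridine synthase, at -0.66 ± 0.08, and RRS1, which acts in assembly of the large subunit, at -0.54 ± 0.07. Other probe sets of RRP12, at mean log2 levels of 4.35 to 5.34 in DND41, gave -0.19 to 0.19 with none called. Another of MRTO4 gave -0.37 and was not called. PUS7 read 6.64 and 6.77 against 6.02 and 6.06, and RRS1 9.14 and 9.04 against 8.54 and 8.56, so the groups were apart in both (limma adjusted p = 0.00138 and 0.00107). NHP2, LTV1 and WDR74, named after their values were seen, made up the 7 at -0.36, -0.27 and -0.48.

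The structural proteins of the ribosome did not follow: limma called 0 of 52 (1 had an unadjusted p under 0.05). Their median was 0.032, with a range of -0.09 to 0.19 and 44 of the 52 values above 0. In 31 of them both NBD arrays lay above both controls, a pattern seen in 21.6% of all genes. The calls of PUS7, RRS1 and SRM held in all 4 fits that left out 1 array. Those of MRTO4 and MXI1 were lost in all 4 (limma adjusted p up to 0.194 and 0.129) and those of RRP12 and LDHA without control 1, control 2 or NBD 2 (0.318 and 0.359). The number of biogenesis factors lower was 2 without control 1, control 2 or NBD 2 and 4 without NBD 1.

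The proteasome, which destroys ubiquitin-tagged proteins, had the largest share of called members among the 38 lists. Of 35 measured genes 11 fell (31.4%, against 1.74% of all genes), 0 rose, and 34 of the 35 values were below 0. The median was -0.236 and the range -0.49 to 0.08. The falls were small and even. PSMB2, a subunit of the catalytic core, read 12.83 and 12.79 with control and 12.36 and 12.28 with NBD, a change of -0.49 ± 0.06 (1.41-fold lower; limma adjusted p = 0.0011). PSMD14, the deubiquitinase of the regulatory lid, read 12.08 and 12.01 against 11.67 and 11.58 (-0.42 ± 0.07; limma adjusted p = 0.00642). The core subunits PSMA3 and PSMA1 were lower at -0.38 ± 0.06 and -0.35 ± 0.06 (limma adjusted p = 0.00656 and 0.00765). The remaining 7 were named after their values were seen. They were the core subunits PSMB5 and PSMB7, the regulatory subunits PSMC1, PSMC2, PSMD8 and PSMD12 and the assembly factor POMP, at -0.34 to -0.26. Other probe sets of PSMB2, at mean log2 levels of 4.45 to 6.59 in DND41, gave -0.19 to 0.15. Those of PSMA3, at 4.61 and 4.74, gave 0.10 and 0.12. Both others of PSMA1 gave -0.33, and none of these probe sets was called.

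The change in DND41 was below the mean change of the other 4 lines for 7 of the 35 (limma on the difference itself, adjusted p under 0.05, which calls 0.725% of all genes), among them PSMD14 (-0.49 ± 0.08; limma adjusted p = 0.00673) and PSMB2 (-0.46 ± 0.07; 0.00407). The list's medians elsewhere were 0.056 in CEM, -0.052 in HPB-ALL, 0.025 in KOPT-K and -0.032 in T-ALL1, with 0 members called in each of these lines, where 1.13%, 0.783%, 1.28% and 3.45% of all genes were called. The count depended on arrays and scaling: 1 was lower without control 1 or NBD 2, 2 without control 2 and 8 without NBD 1, and 7 with each array centred on its median, against 16 with the actin difference as a covariate. PSMB2 was called in all 4 of the fits without 1 array. PSMD14 was lost without control 1 or NBD 2 (limma adjusted p up to 0.0929), and PSMA1 and PSMA3 without control 1, control 2 or NBD 2 (0.0968 and 0.0826). The difference from the other lines was lost without control 1 for PSMB2 (limma adjusted p = 0.0531) and without control 1 or NBD 2 for PSMD14 (up to 0.0759).

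**Figure D3:**
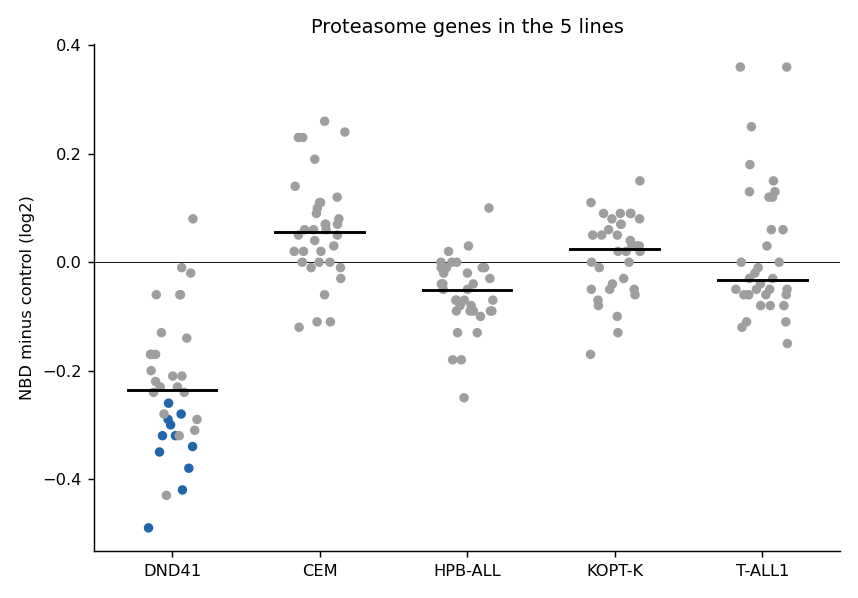
NBD minus control difference (log2, vertical) of the 35 measured proteasome genes in each of the 5 lines, with a bar at the median; blue points are genes called lower. In DND41 the median is -0.236 with 11 genes called, and in the other lines the medians lie between -0.052 and 0.056 with 0 called.

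Genes of protein folding and amino acid supply also fell where called. The integrated stress response raises amino acid transporters and tRNA synthetases when translation is curbed. Of its 45 measured genes 7 fell (15.6%, against 1.74% of all genes) and 0 rose, at a median of -0.121. TRIB3, a pseudokinase induced by this response, read 11.16 and 11.12 with control and 10.36 and 10.18 with NBD (-0.87 ± 0.09; limma adjusted p = 0.000331). The transporter genes SLC7A5 and SLC7A11, for large neutral amino acids and cystine, were lower at -0.59 ± 0.13 and -0.56 ± 0.12 (limma adjusted p = 0.0279 and 0.0305), and CEBPB, a transcription factor, at -0.47 ± 0.11 (0.0478). SLC7A1, VEGFA and YARS1, at -0.42, -0.41 and -0.34, were the others, and SLC7A1 and YARS1 were named after their values were seen. The list's median was 0.091 over the other 4 lines, and the DND41 change was below theirs for 5 of the 45, where 0.725% of all genes were so called, with TRIB3 at -0.98 ± 0.10 (limma adjusted p = 0.000425) and SLC7A11 at -0.90 ± 0.14 (0.0057).

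Of 29 heat shock genes 4 fell (13.8%, against 1.74% of all genes), at a median of -0.165. They were HSPA9, HSPH1, DNAJA1 and HSP90AA1, chaperones or their partners, at -0.43, -0.43, -0.32 and -0.25. Of 27 endoplasmic reticulum chaperone and unfolded protein response genes 2 fell (7.41%, against the same 1.74%), at a median of -0.139. These were PDIA4, a disulfide isomerase, and MANF, a secreted stress protein, both at -0.30. With each array centred on its median, 0 of the heat shock and 0 of the endoplasmic reticulum genes were called. Among the genes of these 3 lists, TRIB3 was called in all 4 fits that left out 1 array, and SLC7A5, SLC7A11, CEBPB, HSPA9, HSPH1, HSP90AA1, PDIA4 and MANF were each lost in all 4 such fits (limma adjusted p up to 0.247, 0.172, 0.321, 0.258, 0.262, 0.303, 0.303 and 0.234). DNAJA1 was lost in 3 of them (0.113, all but the fit without NBD 1). Without control 1, control 2 or NBD 1 the stress response count was 2, and without NBD 2 it was 1.

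Among hypoxia and glycolysis genes most of the called members were lower. PKM, pyruvate kinase, read 8.88 and 8.72 with control and 8.12 and 8.16 with NBD (-0.66 ± 0.11; limma adjusted p = 0.00723), and VEGFA, a growth factor induced by low oxygen, fell by 0.41 ± 0.10 (0.0397). PFKP, phosphofructokinase, fell by 0.35 ± 0.08, and ALDOA, aldolase, which was named after its values were seen, was at -0.33. With LDHA these made 5 of 38 hypoxia and glycolysis genes lower (13.2%, against 1.74% of all genes), with MXI1 the 1 higher (2.63%, against 0.733%). The median was -0.072, with 16 of the 38 values above 0. The PKM call was lost without control 1 or NBD 2 (limma adjusted p up to 0.104), VEGFA without control 2, NBD 1 or NBD 2 (0.319) and PFKP in all 4 fits (0.277). The count lower was 2, 1, 3 and 0 without control 1, control 2, NBD 1 and NBD 2, and 2 with centred arrays.

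Genes linked to quiescence rose where they were called. Of 21 measured targets of FOXO factors and KLF2 and related genes, 4 rose (19.0%, against 0.733% of all genes) and 0 fell, and the median of 0.116 was the highest of the 38 lists, with 7 of the 21 values below 0. They were PIK3IP1, described above, SESN3, a sestrin that restrains growth signalling, TXNIP, which curbs glucose uptake, and BCL6, a transcriptional repressor. SESN3 read 5.80 and 5.89 with control and 6.61 and 6.6 with NBD (0.76 ± 0.14; limma adjusted p = 0.0148). TXNIP read 11.38 and 11.37 against 12.06 and 12 (0.65 ± 0.10; limma adjusted p = 0.00531), and BCL6 9.90 and 9.88 against 10.42 and 10.38 (0.51 ± 0.10; 0.0207). In all 4 genes both NBD arrays lay above both controls, as in every gene called higher. FBXO32, a ubiquitin ligase known as a FOXO target in muscle, was named by its size of change and read 7.21 and 6.63 against 7.85 and 7.67 (0.83 ± 0.16; limma adjusted p = 0.0147). PIK3IP1 was called in all 4 fits that left out 1 array, TXNIP was lost without control 1 (limma adjusted p = 0.0606), FBXO32 without control 2, NBD 1 or NBD 2 (0.118) and SESN3 and BCL6 in all 4 (0.13 for both). The count of the list was 1 without control 1 and 2 without each of the other 3.

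**Figure D4:**
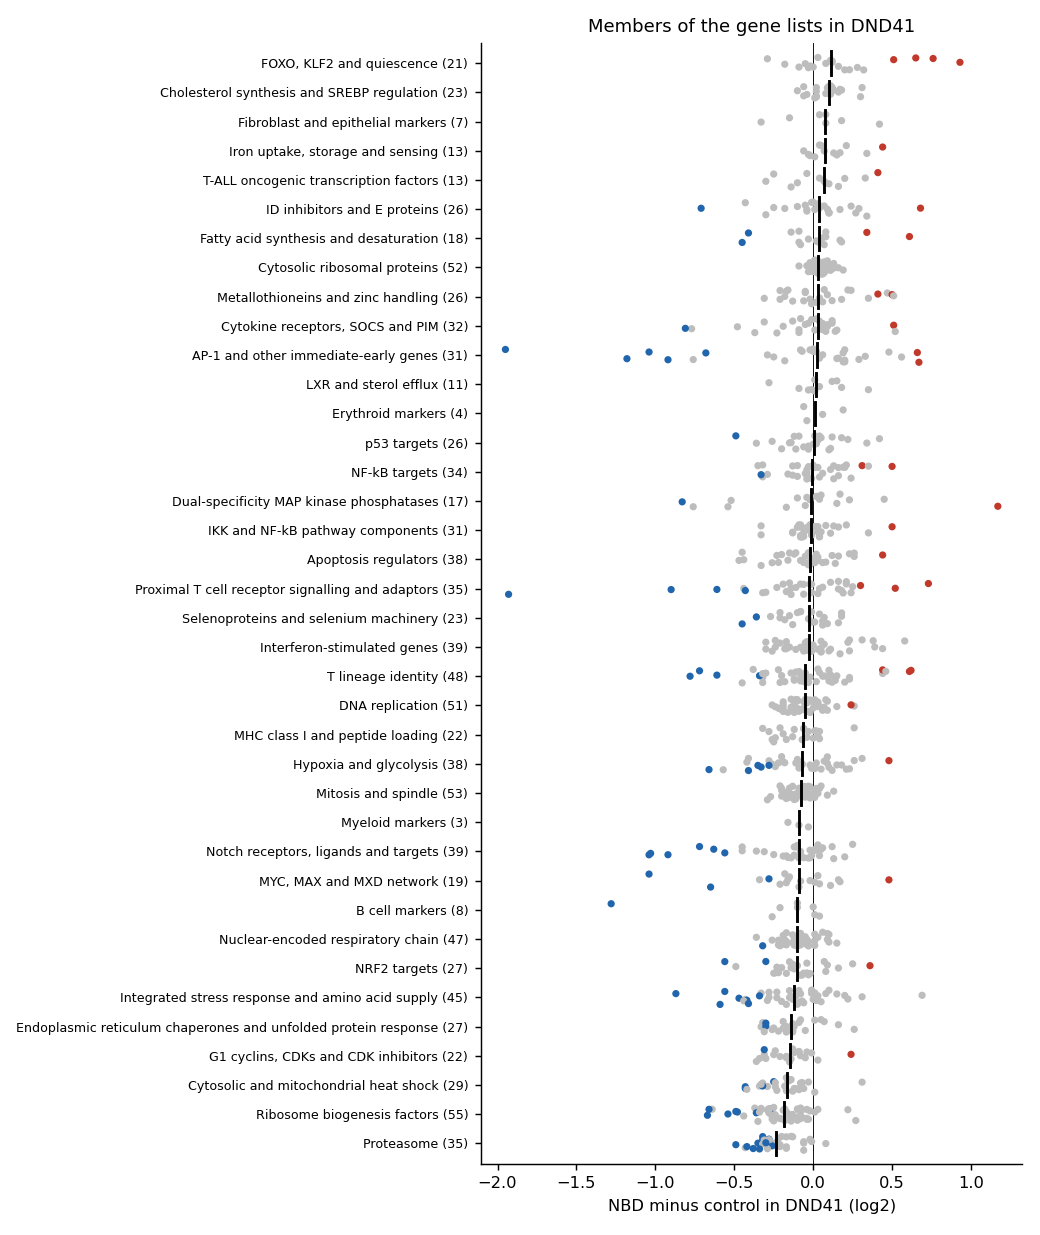
NBD minus control difference in DND41 (log2, horizontal) of the measured members of the 38 gene lists, ordered by median (black bar), with the number measured in brackets. Red points are members called higher and blue points members called lower. The proteasome list lies lowest, at a median of -0.236, and the quiescence list highest, at 0.116.

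Immediate-early genes, which stimuli switch on without new protein synthesis, split. JUN and JUND, subunits of AP-1, rose by 0.66 ± 0.09 and 0.67 ± 0.08 (limma adjusted p = 0.00212 and 0.000554). JUN read 11.17 and 11.16 with control and 11.77 and 11.88 with NBD, and JUND 10.79 and 10.86 against 11.57 and 11.42. IER2, a nuclear protein of this class, read 9.46 and 9.52 against 8.53 and 8.60 (-0.92 ± 0.14; limma adjusted p = 0.0039), and KLF10 8.04 and 8.16 against 6.98 and 6.87. So JUN and JUND were higher on both NBD arrays while EGR1, IER2 and KLF10 were lower on both. MYC fell too, as did CSRNP1, a nuclear protein named after its values were seen (-0.68). In all, 5 of 31 members fell (16.1%, against 1.74% of all genes) and 2 rose (6.45%, against 0.733%). The median was 0.024. The count lower was 3 without each of the 4 arrays in turn, and EGR1, IER2, KLF10, JUN and JUND were called in each of these fits. Among 17 dual-specificity phosphatases DUSP16 rose (5.88%, against 0.733% of all genes) and DUSP3 fell (5.88%, against 1.74%). The NBD arrays of DUSP3 were far apart at 4.97 and 5.81 (-0.83 ± 0.19, limma adjusted p = 0.0342). The DUSP3 call was lost without control 1, control 2 or NBD 1, with changes of -1.25 to -0.41 when 1 array was left out. Other probe sets of DUSP3, at mean log2 levels of 4.14 and 3.24 in DND41, gave -0.03 and 0.10 and were not called.

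T cell genes moved both ways. CD3D, at the highest level of the named genes, read 14.16 and 14.12 with control and 13.46 and 13.40 with NBD (-0.72 ± 0.07; limma adjusted p = 0.000199). CD7, a surface antigen of early T cells, read 8.72 and 8.74 against 8.07 and 7.83 (-0.78 ± 0.09; 0.000821). LAT, the adaptor that links the T cell receptor to its signalling enzymes, read 7.43 and 7.36 against 6.77 and 6.80 (-0.61 ± 0.07; limma adjusted p = 0.000503). In contrast, the genes of receptor gene rearrangement rose. RAG1, a subunit of the recombinase, read 11.41 and 11.35 against 11.97 and 12.01 (0.61 ± 0.08; limma adjusted p = 0.00227), and DNTT, the polymerase that adds bases at the joints, 8.39 and 8.48 against 9.04 and 9.08 (0.62 ± 0.14; 0.0338).

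RAG2, the partner of RAG1, was 0.44 higher (limma adjusted p = 0.0293) and CD247, a chain of the receptor complex, 0.34 lower (-0.34 ± 0.07; 0.0196); both were named after their values were seen. In all, 3 of 48 T lineage genes rose (6.25%, against 0.733% of all genes) and 4 fell (8.33%, against 1.74%). Of 35 genes of proximal T cell receptor signalling and adaptors, 3 rose (8.57%) and 4 fell (11.4%), against the same shares of all genes. RASGRP1 was the largest rise, and CD300A and SASH3, a lymphocyte adaptor, the largest falls. SASH3 read 10.23 and 10.17 against 9.27 and 9.33 (-0.90 ± 0.14; limma adjusted p = 0.00454). CD79A, the signalling chain of the B cell receptor, stood high in this T cell line, at 11.45 and 11.46 with control and 10.22 and 10.12 with NBD (-1.28 ± 0.20; limma adjusted p = 0.00538), and another probe set gave -1.33 (0.00402). It was the only called gene of 8 measured in the B cell list (12.5% lower, against 1.74% of all genes). The summed level of the B cell markers was 11.9 to 11.92 with control and 11.06 to 11.16 with NBD, and CD79A carried this, as the means of EBF1 (9.17 and 9.21), BLK (7.56 and 7.57), CD22 (7.17 and 7.16) and CD79B (6.12 and 6.02) show, while MS4A1 and PAX5 lay below the filter level. MYB, a transcription factor of immature blood cells, rose by 0.41 ± 0.07 (11.91 and 11.97 against 12.33 and 12.36, limma adjusted p = 0.00926). It was the 1 called of 13 measured T-ALL oncogenic factors (7.69% higher, against 0.733% of all genes). Calls of CD3D, CD7, LAT, RAG1, RASGRP1 and CD300A held in all 4 fits that left out 1 array. The T lineage genes higher numbered 1 without control 1, NBD 1 or NBD 2. Receptor signalling genes higher numbered 1 without control 1 or NBD 2, and those lower 2 without control 1. SASH3 was lost without control 1 (limma adjusted p = 0.0606), CD79A without control 1 or NBD 2 (0.0674), MYB without control 1, control 2 or NBD 2 (0.11) and DNTT in all 4 fits (0.245).

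Metal handling and lipid genes held a few calls each. Metallothioneins bind zinc and copper, and 2 of 26 genes of this group rose (7.69%, against 0.733% of all genes) with 0 lower. MT2A read 10.93 and 10.84 with control and 11.36 and 11.22 with NBD (0.41 ± 0.09; limma adjusted p = 0.0361), and MT1HL1, listed as a metallothionein-like locus, rose by 0.50 ± 0.10 (0.0183). Metallothionein genes are nearly identical in sequence, and which member a probe set reads is uncertain. The call of MT2A was lost in all 4 fits that left out 1 array (limma adjusted p up to 0.223) and that of MT1HL1 without control 1, control 2 or NBD 1 (0.128). Of 23 cholesterol synthesis genes limma called 0 in either direction (2 had an unadjusted p under 0.05), while 11 were higher in CEM, 1 in HPB-ALL, 7 in KOPT-K and 3 in T-ALL1, where 0.392%, 0.138%, 0.892% and 1.15% of all genes were called higher. In DND41 the largest values were those of LSS and INSIG1, at 0.31 ± 0.13 and 0.30 ± 0.09 (limma adjusted p = 0.277 and 0.11). The median was 0.101, with 19 of the 23 values above 0. By limma's test of the difference from the other lines 0 of the 23 were called in either direction. The counts by line therefore do not show that DND41 differs. Among 18 fatty acid genes 2 rose (11.1%) and 2 fell (11.1%, against 1.74% of all genes). ACSL1 and SCD rose by 0.61 ± 0.14 and 0.34 ± 0.07 and ELOVL6 and FABP5 were lower at -0.45 ± 0.10 and -0.41 ± 0.07 (limma adjusted p = 0.033, 0.0271, 0.0323 and 0.00578). The other probe sets of SCD gave 0.10, -0.06 and 0.20 and were not called. The control levels of ACSL1, 4.95 and 4.66, are below the filter level of 5. Of 11 genes of sterol efflux limma called 0, with 2 at an unadjusted p under 0.05. The calls of ACSL1, SCD and ELOVL6 were lost in all 4 such fits (limma adjusted p up to 0.255, 0.204 and 0.259) and that of FABP5 without control 1 or NBD 2 (0.0849).

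The MT2A promoter is shown because metal response elements lie in it. It is the 250 bases before the start on the plus strand, at chr16:56608334-56608583 (RefSeq, GRCh38.p14), with the matches in capitals.
MT2A: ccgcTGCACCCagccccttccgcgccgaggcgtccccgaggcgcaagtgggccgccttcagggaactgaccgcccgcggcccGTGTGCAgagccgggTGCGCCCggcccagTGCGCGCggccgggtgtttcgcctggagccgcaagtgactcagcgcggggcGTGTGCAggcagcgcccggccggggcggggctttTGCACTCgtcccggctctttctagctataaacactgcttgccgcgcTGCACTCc
The element cores TGCACNC and TGCGCNC, searched on both strands, gave 5 and 2 matches, and 9.87% and 16.8% of the 35116 promoters hold them.

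The effect in DND41 was then set against the mean effect of the other 4 lines by a contrast of the same fit. The deposited values of T-ALL1 and KOPT-K are written in another number format than those of DND41, CEM and HPB-ALL, and whether all 20 arrays were normalized together is not given in the sources used here; each change is taken within a line. It differed for 171 genes (limma, 1.24% of those tested). The DND41 change was above that of the others for 71 (0.515%) and below it for 100 (0.725%). With each array centred on its median the split was 54 and 163, and against CEM and HPB-ALL alone 71 and 61. Of the 171, 125 were also called in DND41 itself. EGR1 differed most: it fell by 1.95 in DND41 while it was higher with NBD by 1.30 in CEM (limma adjusted p = 0.00242), 1.01 in HPB-ALL (0.0181), 0.73 in KOPT-K (0.0748) and 0.21 in T-ALL1 (0.538). The difference was -2.76 ± 0.20 (limma adjusted p = 1.74e-05). CXXC5 was -0.45 to 0.01 in the other lines and differed by -1.27 ± 0.09 (1.74e-05). CD79A was -0.06 to 0.19 and differed by -1.32 ± 0.23 (0.0119). Another probe set of CD79A had a mean log2 level of 9.27 in DND41 and 6.82 over all 20 arrays. Whether a fall could have been measured in the other lines was not tested. MMRN1 and KLF10 differed by -1.19 ± 0.11 and -1.17 ± 0.17 (0.000254 and 0.00407).

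In the other direction stood ID1 and ID3, inhibitors of the E proteins that guide lymphocyte development. ID1 fell in all 4 other lines, at -2.65 to -0.81, but read 5.42 and 5.49 with control and 5.30 and 5.12 with NBD in DND41 (-0.25 ± 0.15; limma adjusted p = 0.504; difference 1.49 ± 0.17, 0.00102). These levels are close to the filter level of 5, and whether a larger fall could have been measured there was not tested. ID3 fell by 0.71 ± 0.11 in DND41 (7.61 and 7.48 against 6.89 and 6.77; limma adjusted p = 0.00477) and by more in CEM, KOPT-K and T-ALL1, but was -0.06 in HPB-ALL (difference 0.95 ± 0.12, 0.00227). RAG1 rose in DND41 and fell in HPB-ALL and KOPT-K, at -0.94 and -0.82 (difference 0.99 ± 0.09, 0.000254). ABLIM1, an actin-binding protein, rose by 0.54 ± 0.10 in DND41 (8.86 and 8.92 against 9.44 and 9.41) and fell by 0.83 in T-ALL1 (difference 0.98 ± 0.11, 0.00102). MYB rose in DND41 and fell in CEM and HPB-ALL, at -0.43 and -0.55 (difference 0.70 ± 0.08, 0.000877).

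Some rises were shared but smaller than the mean of the other lines. JUN rose by 0.66 in DND41, 0.97 in CEM, 0.58 in HPB-ALL, 3.35 in KOPT-K and 1.11 in T-ALL1. Its difference from that mean was -0.84 ± 0.10 (limma adjusted p = 0.00108). The KOPT-K value is the largest by far, and the DND41 rise was not below that of HPB-ALL. MT2A rose by 0.41 in DND41 and by 1.20 to 1.58 in CEM, HPB-ALL and KOPT-K, and was 0.26 in T-ALL1 (limma adjusted p = 0.13; difference -0.67 ± 0.10, 0.00611). In the metallothionein list 7 of 26 genes had a DND41 change below that of the others and 0 above, where 0.725% and 0.515% of all genes were so called. GADD45A, a growth arrest gene, fell by 0.49 ± 0.09 in DND41 and rose by 0.58 in CEM and 1.19 in KOPT-K (difference -0.93 ± 0.10, 0.000602). HES1, NFKBIA and TNFAIP3 gave differences of 0.07 ± 0.25, 0.22 ± 0.09 and -0.02 ± 0.08 (limma adjusted p = 0.923, 0.273 and 0.925), which does not show that the lines act alike. Of the 53 named genes that differed, 22 were called in all 4 fits without 1 array, EGR1, CXXC5, MMRN1, KLF10, ID1, ID3, RAG1, ABLIM1, MYB, JUN and GADD45A among them. The change in DND41 itself was lost in all 4 fits for ABLIM1 (limma adjusted p 0.0634 to 0.142), in all but that without NBD 1 for GADD45A (up to 0.145) and without control 1 or NBD 2 for ID3 (up to 0.0703). CD79A was lost without control 1, control 2 or NBD 2 (limma adjusted p up to 0.0925) and MT2A without control 1 or NBD 2 (0.07).

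**Figure D5:**
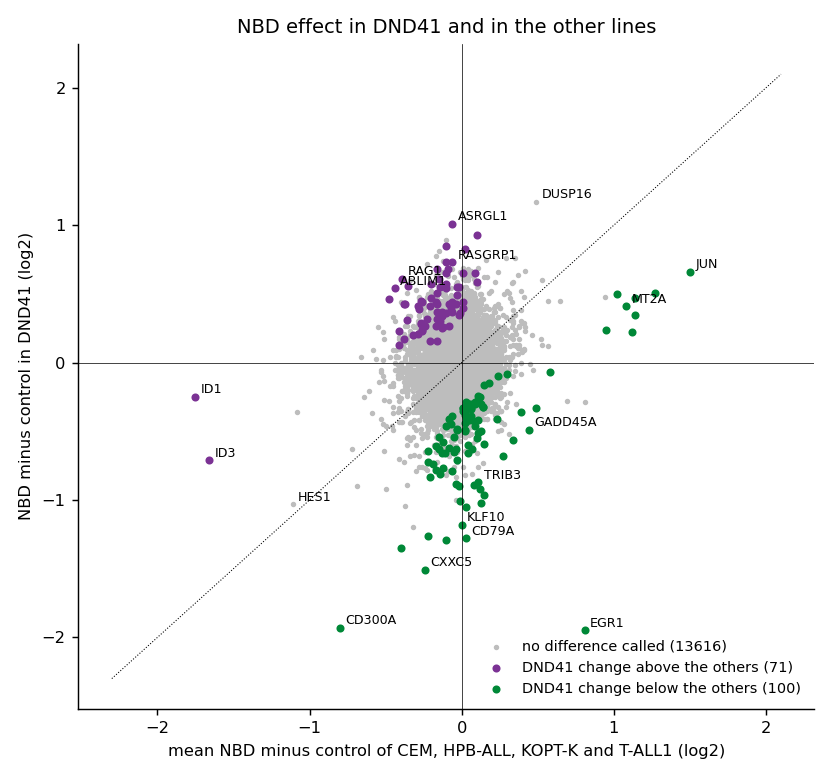
Each point is 1 of 13787 genes, by the mean NBD minus control difference of CEM, HPB-ALL, KOPT-K and T-ALL1 (horizontal, log2) and that of DND41 (vertical, log2), with a dotted line of equality. Purple and green points are the 71 and 100 genes whose DND41 change was called above or below the others; EGR1 lies at -1.95 in DND41 against a mean of 0.81, and ID1 at -0.25 against -1.75.

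Over all genes the changes of any pair of lines were at most weakly related. Across 13787 genes, which are not independent, the correlation with DND41 was 0.01 for CEM, 0.12 for HPB-ALL, 0.25 for KOPT-K and -0.08 for T-ALL1, against 0.05 to 0.34 for the pairs among the other lines, and the arrays share a platform and a fit. Of the 341 genes called in DND41, 238 were called in no other line and the rest in at least 1, while 1.13% of all genes were called in CEM, 0.783% in HPB-ALL, 1.28% in KOPT-K and 3.45% in T-ALL1. The 46 shared with KOPT-K are 13.5% of the DND41 calls and 26.1% of the KOPT-K calls, 39 in the same direction. The 48 shared with T-ALL1 are 14.1% and 10.1%, 33 in the same direction. CEM shared 26 (7.62% and 16.9%; 18 in the same direction) and HPB-ALL 20 (5.87% and 18.5%; 17). The same sign in all 5 lines was seen in 98 of the 341, or 28.7%, against 13.1% of all genes.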

How the data were processed

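RNA from 5 T-ALL lines given an NBD or a control peptide for 16 h was amplified from 20 ng in a double-round protocol and hybridised to Affymetrix arrays, per the labels' protocols. The deposited values are linear intensity values made by the authors with RMA, per the submitters' processing notes. They were used as log2 with no pseudocount. Of 54675 probe sets, 41097 had 1 gene symbol, 1801 several and 11777 none, and 41043 were named through RefSeq. The probe set with the highest mean over 20 arrays stood for a gene. Genes at or above the median of all deposited values (32, log2 of 5) on 2 or more arrays were tested, 13787 of 19775. R 4.3.3 with limma 3.58.1 fitted 10 group means (10 residual degrees of freedom, 3.42 prior) with Benjamini-Hochberg adjustment at 0.05, and an SE is that of this fit. The code was tested on simulated data. Arrays numbered alike in the labels were checked for pairing, which the check cannot exclude, and no block was used in this fit.

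The members and the 38 gene lists were chosen with earlier results of these data known. Named were the 15 largest rises and falls, the 5 largest differences from the other lines in each direction, up to 4 called genes per list (or the 2 with the lowest p), and NFKBIA, TNFAIP3, CYLD, HES1, NOTCH1, NOTCH3, MYC, IKBKB, CHUK and IKBKG. Other genes are marked as named after their values were seen, apart from the cell markers. Alternatives covered filters, probe set choice, pseudocount, scaling, the arrays giving the spread, a replicate block, an actin covariate and leaving out each array.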

Additional observations from a re-analysis of the deposited data

Results flagged for a closer look

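For 53 genes named here the NBD effect in DND41 differed from the mean effect of the other 4 lines by limma's test of that difference (adjusted p under 0.05), which is what singled them out. The values are the DND41 change minus the mean change of CEM, HPB-ALL, KOPT-K and T-ALL1, on the log2 scale.

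The largest negative differences were those of EGR1 (-2.76), CD79A (-1.32), CXXC5 (-1.27), MMRN1 (-1.19), KLF10 (-1.17), ISM1 (-1.15), CD300A (-1.14), GALNT6 (-1.11), PALD1 (-1.08), TMC8 (-1.05), IER2 (-1.04), PLXND1 (-1.0), TRIB3 (-0.98) and TMC6 (-0.95). Among growth arrest, stress and metal genes they were those of GADD45A (-0.93), SLC7A11 (-0.90), JUN (-0.84), SLC7A5 (-0.74), PKM (-0.69), MT2A (-0.67), VEGFA (-0.64), MT1HL1 (-0.52), DNAJA1 (-0.45), MANF (-0.36) and the peroxiredoxin gene PRDX1 (-0.36). The T cell genes CD7 (-0.61), LAT (-0.44) and CD70 (-0.36) followed. The proteasome genes were at -0.49 (PSMD14), -0.46 (PSMB2), -0.39 (PSMA3) and -0.37 (PSMA1). The ribosome biogenesis genes PUS7 and RRS1 were at -0.56 and -0.39, FABP5 at -0.33 and the cell cycle factor E2F3 at -0.34. Some of the largest differences came with a fall elsewhere too. CD300A was called lower in HPB-ALL (-1.54), KOPT-K (-0.89) and T-ALL1 (-0.50). TMC6 was called lower in CEM (-0.58) and T-ALL1 (-0.69), and TMC8, KLF10 and CXXC5 in T-ALL1 (-0.97, -0.66 and -0.45). In contrast, EGR1 was called higher in CEM and HPB-ALL and GALNT6 in KOPT-K (0.55).

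The positive differences were those of ID1 (1.49), ASRGL1 (1.08), RAG1 (0.99), ABLIM1 (0.98), ID3 (0.95), MME (0.94), SMAD1 (0.84), PIK3IP1 (0.83), HHIP-AS1 (0.83), FBXO32 (0.82), RASGRP1 (0.79), HS6ST2 (0.77), ZNF827 (0.76), MYB (0.70), TXNIP (0.64), CASP6 (0.50) and GSTM3 (0.47). Of the 53 calls, 22 held in all 4 fits that left out 1 DND41 array and 9 held in none. A further probe set each of CD79A, MME and FBXO32 averaged 9.27, 9.03 and 7.22 in DND41. Over all 20 arrays these averaged 6.82, 6.03 and 5.18. Whether low levels in the other lines limited the changes seen there was not tested.

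Probe sets without a single gene name, which the report does not use, also carried signal: of 6060 tested, 17 were higher and 16 lower with NBD in DND41 (0.545% called, limma).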

How the results depend on the processing

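No named change or difference reversed its sign as a called value under any alternative run. The counts of genes higher and lower in DND41 were 101 and 240, and those whose change lay above and below that of the other lines 71 and 100. Without a filter on dim genes they were 54 and 148, and 46 and 61. With a stricter filter 109 lay above the other lines, and with a pseudocount of 16, 107 did. With median centring 163 lay below. From the DND41 arrays alone they were 0 and 3. With the spread from CEM, DND41 and HPB-ALL they were 195 and 365, with 110 above the other lines, and without T-ALL1 165 and 374. With a trended robust prior they were 174 and 406, and 150 and 235. With the actin covariate they were 207 and 361, and 181 lay below the other lines. Against CEM and HPB-ALL alone 61 lay below. Past 1.5-fold they were 25 and 69. Leaving out 1 array gave 13 to 97 higher and 35 to 172 lower, and 19 to 76 above and 27 to 80 below the other lines. With every probe set tested on its own, an alternative chosen after seeing the data, they were 92 and 192. The fit with the replicate number as a block gave 10 higher and 34 lower, of which 43 are among the 341, and 14 above and 24 below the other lines. As a check on this replicate block, deviations of same-numbered arrays correlated at 0.143 in DND41 and -0.281 to -0.045 in the other lines. A correlation over genes that are not independent cannot exclude a pairing in DND41. The remaining alternatives kept these counts within 1.5-fold, but similar counts can hold different genes. When the probe sets of each gene were averaged, 250 genes were called in DND41, of which 199 are among the 341. Of 161 named changes and differences, 39 lost their call in that fit. The changes of PSMB2, PSMA3, RRP12, MYB and SCD were among them (limma adjusted p = 0.456, 0.845, 0.672, 0.489 and 0.8). The cause of these shifts was not tested. An array gives no depth, and dim genes near a log2 level of 5 limit what can be measured.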

Other observations

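Groups that the report does not describe held 0 to 3 called genes each in DND41, where 0.733% of all genes were called higher and 1.74% lower. Of 53 mitosis and spindle genes limma called 0 (6 had an unadjusted p under 0.05), with 45 values below 0 and a median change of -0.078 on the log2 scale, and of 51 DNA replication genes it called 1 higher, E2F2, a cell cycle transcription factor (0.24 ± 0.06; limma adjusted p = 0.0498). E2F3, of the same family, fell by 0.31, while its other probe set, at a mean log2 level of 9.20 in DND41, gave 0.01 (limma adjusted p = 0.985). Of 26 p53 targets GADD45A fell, and of 38 apoptosis regulators CASP6, an executioner caspase, rose by 0.44. TFRC, the transferrin receptor, rose by 0.44, the 1 called of 13 iron genes (7.69%). GPX1, a glutathione peroxidase, and SELENOH, a nuclear selenoprotein, fell by 0.45 and 0.36, the 2 called of 23 selenoprotein genes (8.7%). Among 27 NRF2 targets GSTM3, a glutathione transferase, rose by 0.36 (3.7%), at levels of 4.46 to 4.89, below the filter level of 5 on all 4 arrays, and SLC7A11 and PRDX1 fell (7.41%). IL21R, a cytokine receptor, fell by 0.81 and BCL6 rose among 32 cytokine genes, and NDUFB8, of complex I, fell by 0.32 among 47 respiratory chain genes. Of 39 interferon-stimulated and 22 class I genes limma called 0, with 13 and 5 at an unadjusted p under 0.05 and median changes of -0.029 and -0.066. In the fits that left out 1 array, the calls of TFRC, E2F2, E2F3 and GSTM3 were lost in all 4 (limma adjusted p up to 0.121, 0.258, 0.155 and 0.321). Those of CASP6, GPX1, SELENOH, NDUFB8 and PRDX1 were lost without control 1, control 2 or NBD 2 (0.21, 0.317, 0.0989, 0.268 and 0.185) and that of IL21R without control 1, NBD 1 or NBD 2 (0.321).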
